A study of Rattus norvegicus with 12 samples.

Results

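Endothelial cells line blood vessels, the heart's chambers and lymphatics, and are recognised by a set of receptors, junction proteins and secreted factors. Transcripts of 10 such genes were followed on whole-transcript rat arrays from cultured ventricular heart cells: the VEGF receptors Kdr and Flt1, the angiopoietin receptor Tek and its partner Tie1, the co-receptor Eng, the junction proteins Pecam1 and Cdh5, the transcription factor Sox18, the water channel Aqp1 and the clotting protein Vwf. A gene was represented by the probe set that carried its symbol alone. This gave 1 probe set each for 9 of the 10 genes among the 10025 genes tested, and Vwf was not analysed here. All 9 passed the filter on low values. The table came without detection calls, so a level says where a probe set stood on the log2 scale and not whether the transcript was present.

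The cells were cultures from ventricles of neonatal Wistar rats, plated for 44 h and then held for 24 h in medium without serum. The 12 arrays formed 4 groups of 3: cultures given adenovirus for mef2Cγ+ (γ+), cultures given adenovirus for mef2Cγ- (γ-), cultures given adenovirus for mef2Cγ+23/24 (23/24), and untreated control cultures. MEF2C is a muscle transcription factor, and the γ segment is a stretch of it that splicing can include or skip and that is known to repress its activity. The labels do not define 23/24, and give no virus dose or time after infection. No group received virus without an insert, so each comparison with control also holds any effect of the virus. Replicates are numbered as biological in the labels without a statement that they came from separate cell isolations, so p-values measure the spread between these samples.

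Preparations of neonatal ventricular myocytes are known to keep some non-muscle cells, endothelial cells among them. In such a mixed culture a lower value of an endothelial transcript can mean fewer endothelial cells or less of the transcript in each. It can also mean a change in other cells that make the transcript. These readings cannot be told apart here. As background, VEGF-A acts on endothelial cells through the kinase receptor Kdr, while Flt1 binds the same ligand tightly and signals weakly. Angiopoietins act through Tek to keep vessels stable. Cdh5 and Pecam1 hold neighbouring cells together, and Sox18 switches on vascular genes during development.

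The arrays appear to have been normalized in 3 separate sets. One set held the 23/24 and control arrays, another the γ+ arrays and the last the γ- arrays: every pair inside a set (21 of 21) shared some exactly equal values, and 0 of 45 pairs between sets did. Of the 6 comparisons, only 23/24 against control lay within a set; in the others, set and group cannot be told apart. Replicate 2 of the γ+ group stood off from replicates 1 and 3, with a standard deviation of the difference of up to 0.24 log2 within the γ+ group, against 0.12 between γ+ replicates 1 and 3 and at most 0.16 within any other group. All 18 cardiomyocyte markers tested were measured, with a mean log2 level of 11.98 to 12.02 over the list in the control arrays.

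All 9 endothelial genes fell in the γ+ group relative to control, with changes of -1.79 to -0.48 log2 (3 arrays per group, limma adjusted p of 0.0015 or less for each), and in each the γ+ arrays lay below the control arrays. Of all genes tested, 64.9% were called in the same comparison, 38.7% lower and 26.2% higher, and 66.6% had γ+ and control arrays that did not overlap. The median change of the 9 genes was -0.80 log2 beside -0.07 over all genes. In the γ- group the genes split: Sox18, Tek and Tie1 fell, Flt1 rose, and Kdr, Eng, Pecam1, Cdh5 and Aqp1 did not pass, where 6.94% of all genes were called. In the 23/24 group limma called 0 of the 9 and 0% of all genes.

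**Figure D1:**
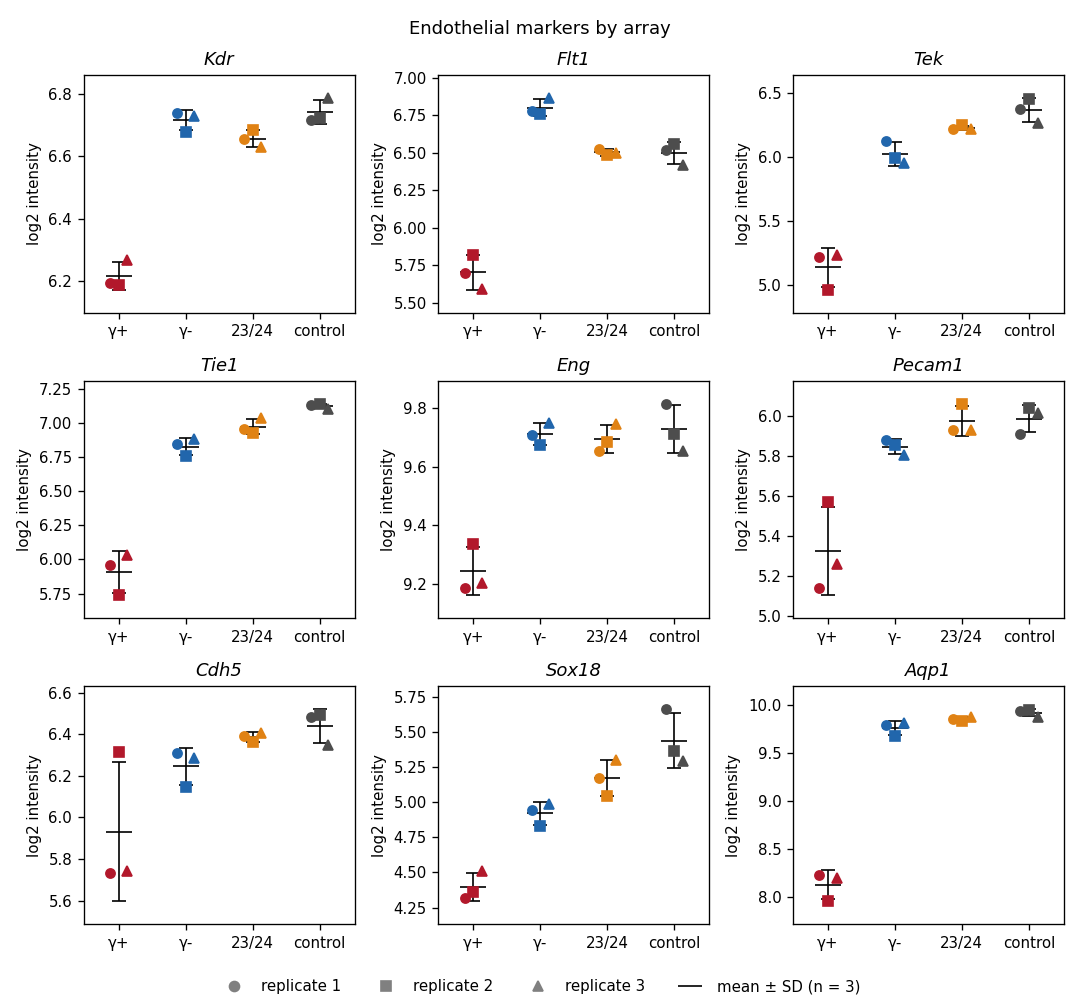
Log2 intensity (vertical axes, each panel on its own range) of 9 endothelial genes on each of 12 arrays, by group from γ+ at the left to control at the right, with replicates 1 to 3 as circles, squares and triangles and the mean ± SD (n = 3) in black. The γ+ arrays are lowest for every gene except Cdh5, whose γ+ replicate 2 stands at 6.32, and the γ- arrays are highest for Flt1.

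Kdr, the main signalling receptor for VEGF-A, fell in the γ+ cultures and differed little among the other groups. Its log2 level was 6.19, 6.19 and 6.27 in the γ+ arrays, 6.74, 6.68 and 6.73 in the γ- arrays, 6.65, 6.68 and 6.63 in the 23/24 arrays, and 6.72, 6.72 and 6.79 in the control arrays. The 3 γ+ values lay below those of every other array. The change was -0.53 ± 0.06 log2 (SE, n = 3 per group, limma adjusted p = 1.6e-06), or 69.4% of the control level. In the γ- group the change was -0.03, with a 95% interval of -0.16 to 0.11, and in the 23/24 group it was -0.09, with an interval of -0.22 to 0.05.

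Flt1, the VEGF receptor that acts largely as a trap for its ligand, fell in the γ+ cultures and rose in the γ- cultures, the rise with a call that leaving out single arrays removed. It stood at 5.70, 5.82 and 5.59 in the γ+ arrays, at 6.78, 6.76 and 6.87 in the γ- arrays, at 6.53, 6.48 and 6.50 in the 23/24 arrays, and at 6.52, 6.56 and 6.42 in the control arrays. The γ+ arrays were the lowest and the γ- arrays the highest, with no overlap between either of them and control. The γ+ change was -0.80 ± 0.07 log2 (SE, limma adjusted p = 1.0e-07) and the γ- change 0.30 ± 0.07 (adjusted p = 0.0260), a level of 123% of control. The γ- call was lost without control replicate 1 or 3 and without γ- replicate 1, 2 or 3, with limma adjusted p between 0.0597 and 0.103. Among all genes, 97.3% had a smaller or more negative γ- change than Flt1. The 23/24 change was 0.00, with an interval of -0.16 to 0.16.

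The promoters of Kdr and Flt1 are printed because these are the paired receptors for VEGF-A, and that of Aqp1 because its fall under γ+ was the largest of the 9. The sequences are RefSeq's, from GRCr8, each covering 250 bases before to 50 bases after the annotated start and written in the direction of the gene. RefSeq entries were at hand for 5 of the genes, Kdr, Flt1, Tie1, Aqp1 and Eng. Capitals mark GGAA or its complement TTCC, the core bound by ETS factors, in Kdr and Flt1, and the match to the MEF2 consensus in Aqp1.
Kdr, chr14:32571813-32572112, plus strand: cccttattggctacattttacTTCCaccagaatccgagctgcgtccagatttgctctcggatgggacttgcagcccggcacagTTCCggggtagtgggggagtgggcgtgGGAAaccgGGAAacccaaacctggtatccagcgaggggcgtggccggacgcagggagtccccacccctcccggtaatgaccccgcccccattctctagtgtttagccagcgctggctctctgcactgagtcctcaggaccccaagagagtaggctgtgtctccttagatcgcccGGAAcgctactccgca
Flt1, chr12:12333180-12333479, plus strand: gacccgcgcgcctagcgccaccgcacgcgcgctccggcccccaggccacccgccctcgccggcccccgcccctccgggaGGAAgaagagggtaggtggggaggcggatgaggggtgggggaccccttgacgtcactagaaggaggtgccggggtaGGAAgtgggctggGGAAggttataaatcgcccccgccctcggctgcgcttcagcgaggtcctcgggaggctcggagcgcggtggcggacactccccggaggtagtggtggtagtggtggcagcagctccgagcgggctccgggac
Aqp1, chr4:85812534-85812833, plus strand: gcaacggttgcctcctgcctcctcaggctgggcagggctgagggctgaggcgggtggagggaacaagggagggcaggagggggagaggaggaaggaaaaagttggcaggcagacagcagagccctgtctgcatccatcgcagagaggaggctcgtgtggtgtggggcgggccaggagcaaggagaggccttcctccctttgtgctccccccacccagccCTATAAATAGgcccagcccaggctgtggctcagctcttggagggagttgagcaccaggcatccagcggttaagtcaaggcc

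On both strands, GGAA occurred 5 times in the Kdr window, 3 times in Flt1, 4 times in Tie1, 4 times in Aqp1 and 3 times in Eng, and it occurs in 95.8% of 33469 rat promoters of this length. The longer ETS form CCGGAA, which contains GGAA, was found in Kdr alone of the 5 (2 matches, 15% of all promoters), and CAGGAA, which also contains it, in Eng alone (1 match, 29.1% of all promoters). The TATA box TATAAA was found in Flt1, with its first base at -75 from the start, and in Aqp1, at -30 (14.2% of all promoters). The MEF2 consensus matched once, in Aqp1, and overlaps that TATA box; 3.29% of all promoters hold a match. The SOX motif AACAAT and the GATA motif AGATAA were in 0 of the 5 windows (11.7% and 11.6% of all promoters). A match describes the letters of the window and is no evidence of binding.

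Because Flt1 and Kdr were read on the same arrays, the difference between their log2 values is free of any shift common to an array. That difference changed by 0.33 log2 in the γ- group relative to control and the arrays did not overlap. In an exact two-sided permutation test this gave p = 0.1, the smallest that 3 against 3 arrays allow, and 0.6 after Benjamini-Hochberg adjustment over 6 such tests. For γ+ the change of the same difference was -0.27 log2 (exact permutation p = 0.2), with overlapping arrays. For Tek and Tie1 the difference moved by -0.01 log2 in the γ+ group, -0.05 in the γ- group and 0.01 in the 23/24 group (exact permutation p = 0.9, 0.6 and 0.7).

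Tek, the receptor kinase for angiopoietins also called Tie2, had lower values in the γ+ and γ- cultures. Its levels were 5.22, 4.97 and 5.23 in the γ+ arrays, 6.13, 5.99 and 5.95 in the γ- arrays, 6.22, 6.25 and 6.22 in the 23/24 arrays, and 6.38, 6.45 and 6.26 in the control arrays. The 4 groups stood in that order from lowest to highest, and the arrays of the γ+, γ- and control groups were fully separate. Tek changed by -1.22 ± 0.09 log2 in γ+ (SE, limma adjusted p = 3.7e-09), to 42.8% of control, and by -0.34 ± 0.09 in γ- (adjusted p = 0.0305), to 78.8%. The 23/24 change of -0.14 had an interval of -0.32 to 0.05.

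Tie1, an orphan receptor that partners Tek, followed closely. It read 5.96, 5.74 and 6.03 in the γ+ arrays, 6.84, 6.76 and 6.88 in the γ- arrays, 6.96, 6.92 and 7.03 in the 23/24 arrays, and 7.13, 7.14 and 7.10 in the control arrays. No array of any virus group reached a control array. The change was -1.21 ± 0.08 log2 in γ+ (SE, limma adjusted p = 8.5e-10) and -0.30 ± 0.08 in γ- (adjusted p = 0.0321). In 23/24 it was -0.15, with an interval of -0.32 to 0.01.

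Eng, or endoglin, a co-receptor that presents TGF-β family ligands such as BMP9 to endothelial cells and is also known from activated fibroblasts, had the smallest change in γ+. Its values were 9.19, 9.34 and 9.20 in the γ+ arrays, 9.71, 9.68 and 9.75 in the γ- arrays, 9.65, 9.69 and 9.75 in the 23/24 arrays, and 9.82, 9.71 and 9.65 in the control arrays. The γ+ arrays stood apart, and the other 3 groups overlapped. The γ+ change was -0.48 ± 0.06 log2 (SE, limma adjusted p = 1.7e-06), or 71.5% of the control level. The intervals for γ- (-0.14 to 0.11) and 23/24 (-0.16 to 0.09) both held 0.

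Pecam1, the adhesion molecule CD31 of endothelial junctions that platelets and leukocytes also carry, fell in the γ+ cultures. It measured 5.14, 5.57 and 5.26 in the γ+ arrays, 5.88, 5.86 and 5.80 in the γ- arrays, 5.93, 6.06 and 5.93 in the 23/24 arrays, and 5.91, 6.04 and 6.01 in the control arrays. The γ- values lay below all 3 control values by a small margin, whereas those of 23/24 overlapped control. The γ+ change was -0.66 ± 0.10 log2 (SE, limma adjusted p = 2.0e-05), and that of γ- was -0.14 with an interval of -0.35 to 0.07.

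Cdh5, which encodes VE-cadherin, the adhesion protein that seals endothelial junctions, was the least even of the 9 in the γ+ group. Its γ+ arrays read 5.73, 6.32 and 5.74, its γ- arrays 6.31, 6.14 and 6.29, its 23/24 arrays 6.39, 6.36 and 6.41, and its control arrays 6.48, 6.49 and 6.35. Replicate 2 of γ+ lay 0.58 log2 above the mean of replicates 1 and 3, just under the lowest control array, while replicates 1 and 3 differed by 0.01. The γ+ change was -0.51 ± 0.12 log2 (SE, limma adjusted p = 0.0015) and was -0.70 ± 0.08 without γ+ replicate 2 (adjusted p = 3.4e-07). In γ- it was -0.19, with an interval of -0.45 to 0.06.

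Sox18, a transcription factor of vessel and lymphatic development, had the largest γ- change of the 9. It stood at 4.32, 4.36 and 4.51 in the γ+ arrays, 4.94, 4.83 and 4.99 in the γ- arrays, 5.17, 5.04 and 5.30 in the 23/24 arrays, and 5.66, 5.37 and 5.29 in the control arrays. All 3 γ+ values were under 4.78, the level below which the filter removed a probe set by its mean over all arrays, so its fall there ended in the range of dim probe sets. The γ+ change was -1.04 ± 0.11 log2 (SE, limma adjusted p = 4.5e-07) and the γ- change -0.52 ± 0.11 (adjusted p = 0.0129). Of all genes, 0.389% had a more negative γ- change. The 23/24 change of -0.27 did not pass (limma adjusted p = 0.504), although its own interval of -0.50 to -0.03 lay below 0 and 1.03% of genes had a more negative one.

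Aqp1, the water channel of capillary endothelium that red cells and some epithelia also carry, had the largest fall. It stood at 8.23, 7.96 and 8.21 in the γ+ arrays, 9.80, 9.68 and 9.82 in the γ- arrays, 9.85, 9.84 and 9.87 in the 23/24 arrays, and 9.94, 9.94 and 9.88 in the control arrays. The γ+ arrays stood far below all others. The γ+ change was -1.79 ± 0.07 log2 (SE, limma adjusted p = 1.3e-12), to 29.0% of control, and 1.02% of genes had a more negative one. In γ- the change was -0.16 (limma adjusted p = 0.170), with an interval of -0.30 to -0.01. With γ+ replicate 2 left out of the fit, which lowers the pooled spread and leaves this value as it is, its adjusted p was 0.0183.

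**Figure D2:**
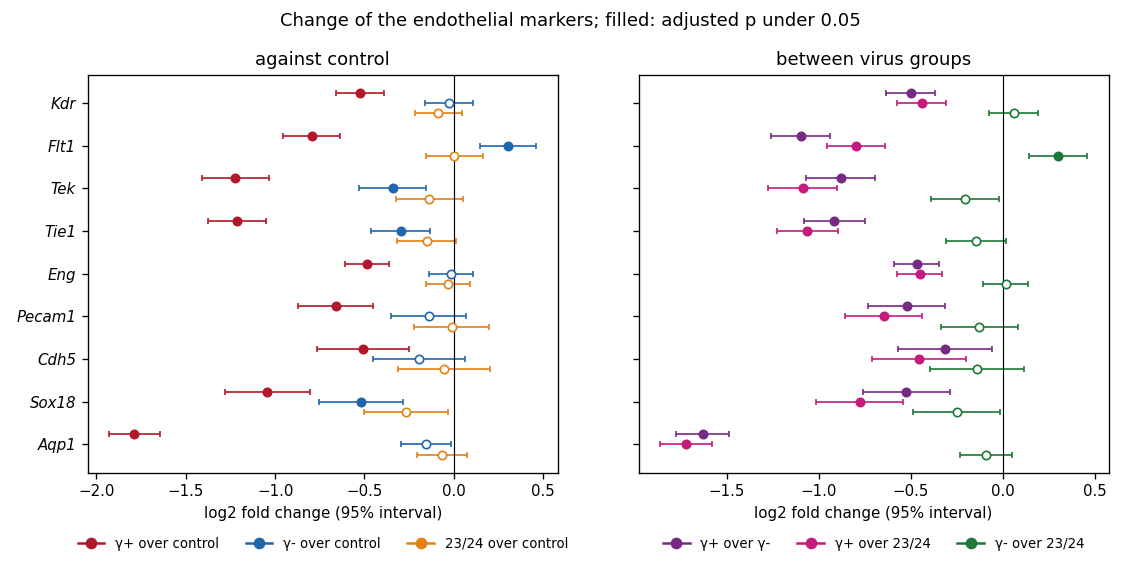
Log2 fold change (horizontal axes) of 9 endothelial genes, with 95% intervals from the limma fit over 12 arrays, against control (left) and between the virus groups (right); filled points have an adjusted p under 0.05. Every γ+ point is filled and left of 0, and Flt1 is the gene whose filled γ- points lie to the right of 0.

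In the γ- group relative to control, 3 of the 9 genes were lower and 1 was higher, against 6.94% of all genes called, 3.88% lower and 3.06% higher. The arrays of the γ- and control groups did not overlap for 7 of the 9 genes, against 33.4% of all genes. The median change was -0.16 log2, and 8 of the 9 lay below the median of all genes, which was -0.01. These calls were close to the threshold. The count of 4 called genes became 2 under median centring of the arrays, which removed Tek and Tie1. It was 0 without control replicate 1 or without γ- replicate 2, 2 without control replicate 2, control replicate 3 or γ- replicate 1, 1 without γ- replicate 3, and 5 without γ+ replicate 2, the fifth being Aqp1. The share of all genes called was 16.6% without γ+ replicate 2. With a minimum change of 0.5 log2 added, 1 of the 9 (Sox18) and 0.908% of all genes passed in γ-, and 8 of the 9 and 29.5% of all genes in γ+.

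In the 23/24 group relative to control, limma called 0 of the 9 genes and 0% of all genes, with 1 of the 9 (Sox18) and 899 of the 10025 genes at an unadjusted p under 0.05. The arrays did not overlap for 4 of the 9 (Kdr, Tek, Tie1 and Aqp1, lower in 23/24), against 17.9% of all genes. Their changes ran from -0.27 (Sox18) to 0.00 (Flt1), with a median of -0.07 against -0.02 over all genes.

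**Figure D3:**
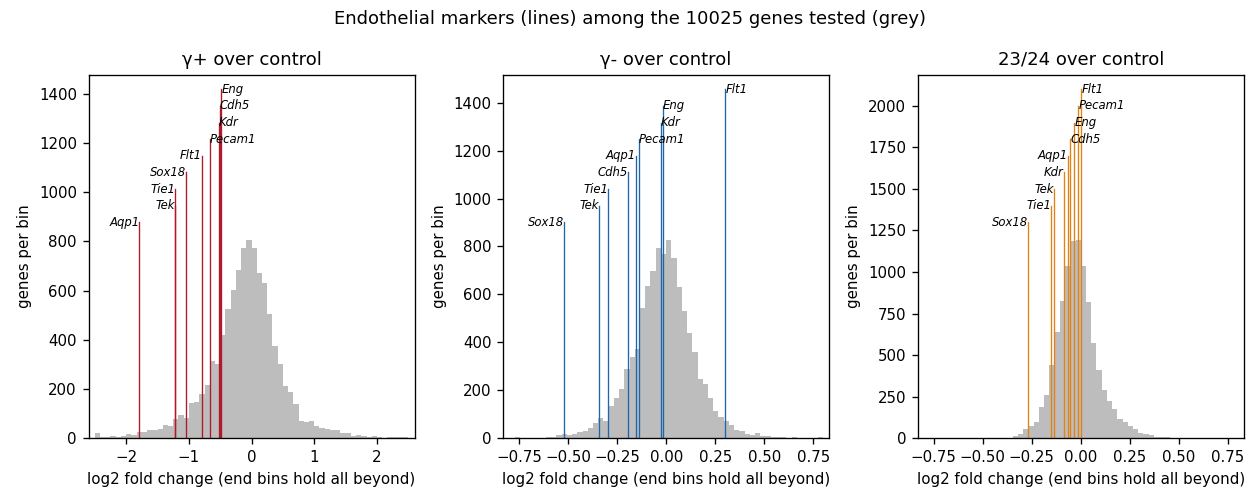
Histograms of the log2 fold change of all 10025 genes tested (grey, genes per bin) against control in the γ+, γ- and 23/24 groups, with the 9 endothelial genes as vertical lines whose heights only separate the names; the end bins hold all genes beyond the axis. In γ+ the 9 lines run from -1.79 (Aqp1) to -0.48 (Eng), and in γ- Flt1 (0.30) stands to the right of the other 8.

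The virus groups were also set against each other, in comparisons that share arrays with those above. The γ+ group was lower than the γ- group for all 9 genes (median -0.52 log2), against 37.5% of all genes called lower and 26.7% higher (64.2% in all). For 8 of the 9 the arrays did not overlap, against 67.1% of all genes. Flt1 differed by -1.10 ± 0.07 log2 (SE, limma adjusted p = 2.0e-09) and Aqp1 by -1.63 ± 0.07 (adjusted p = 4.5e-12). Cdh5 had the weakest difference, -0.31 ± 0.12 (adjusted p = 0.0313), with overlapping arrays, and it was -0.51 without γ+ replicate 2 and did not pass after median centring, after quantile normalization or in the 6 compared arrays alone. It was also lost without γ+ replicate 1 or 3 (-0.22 in each, limma adjusted p = 0.149 and 0.145) and without γ- replicate 1 or 3.

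The γ+ group was lower than the 23/24 group for all 9 genes as well (median -0.78 log2), against 37.9% of all genes called lower and 28% higher (65.8% in all). The arrays did not overlap for any of the 9, against 67.4% of all genes. With the minimum change of 0.5 log2, 6 of the 9 passed against γ- (29% of all genes) and 6 against 23/24 (30% of all genes). Changes ran from -0.44 for Kdr to -1.72 for Aqp1, with Tek at -1.09 ± 0.09 and Tie1 at -1.06 ± 0.08 (SE, n = 3 per group). Between the γ- and 23/24 groups, Flt1 was the gene of the 9 that passed, at 0.30 ± 0.07 log2 (limma adjusted p = 0.0237), where 4.16% of all genes were called higher and 3.94% lower (8.1% in all). It missed the minimum change, which 1.12% of all genes passed. The arrays did not overlap for 7 of the 9, against 36.2% of all genes. That call was lost without γ- replicate 1 or 3 and without any of the 23/24 replicates, with adjusted p between 0.0593 and 0.0953.

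Ordered by group mean, γ+ was lowest for all 9 genes, and control was highest for 8. Flt1 was the exception, with γ- highest. For Pecam1, Cdh5, Tek, Tie1, Sox18 and Aqp1 the order was γ+, γ-, 23/24, control. In these 6 genes the step between γ+ and γ- passed the test, and neither the step between γ- and 23/24 nor that between 23/24 and control did. For Kdr and Eng the only step that passed was that above γ+.

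Further genes of endothelial biology were read from 4 lists of 79 genes in all, of which 70 had a probe set and 62 were tested. The lists were not limited to genes that endothelial cells alone make. Some stood far above Pecam1 (5.99) and Cdh5 (6.44) in control, such as Cav1 (11.04) and Vegfb (10.79). Which cells gave these values was not tested. In γ+ relative to control 48 of the 62 fell and 4 rose, with a median of -0.67 log2, against -0.07 over all genes. The share called lower was 77.4%, against 38.7% of all genes. In γ- 6 fell and 3 rose, or 9.68% called lower against 3.88% of all genes. In 23/24 limma called 0 of the 62 and 0% of all genes. Without γ+ replicate 2 in the fit, 1 of 18 surface and junction genes and 1 of 11 shear and haemostasis genes were lower in 23/24. The share of all genes called there was then 0.579%.

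Surface and junction genes had 15 of 18 lower and 1 higher in γ+, where 38.7% of all genes were called lower and 26.2% higher. Cav1, the caveolin of endothelial pits, changed by -1.36 log2, Cd36, a fatty acid transporter that heart muscle also makes, by -1.48, and the sialomucin Cd34 by -1.82, to 5.08 in γ+ against 6.90 in control. Calcrl, the receptor for adrenomedullin and named after its value was seen, rose by 0.42. In γ-, where 6.94% of all genes were called, 2 of 18 passed, Cd36 (-0.23) and Gpihbp1 (-0.39), which anchors lipoprotein lipase to capillaries. Ramp2, a partner of Calcrl, had a change of -0.29 that did not pass. Under median centring 1 of 18 was lower in γ-, and without γ+ replicate 2 in the fit 4 were. In that fit 16.6% of all genes were called in γ-. Against 23/24, where 8.1% of all genes were called, Gpihbp1 was lower (-0.51) and Calcrl higher (0.46) in γ-, and Myct1 (0.26) did not pass. Under median centring 3 were higher and 1 lower. Among the calls over all genes 77.9% were then higher, where 51.4% were before.

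Of 14 endothelial transcription factor genes, 8 fell and 1 rose in γ+, where 38.7% of all genes were called lower and 64.9% in either direction. Klf2, a factor induced by flow, changed by -1.34 log2, the hypoxia factor Epas1 by -0.66 and Ets1 by -0.64. Foxo1, named after its value was seen, rose by 0.24, and its call was lost without γ+ replicate 2, where 9 fell and 0 rose. In γ- and in 23/24 relative to control limma called 0 of 14, against 6.94% and 0% of all genes. Without γ+ replicate 2 in the fit 1 was higher in γ-, where 16.6% of all genes were then called.

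Ligands and receptors of VEGF, angiopoietin and Notch signalling had 15 of 19 lower and 2 higher in γ+. Of all genes, 38.7% were called lower and 26.2% higher there. S1pr1, the sphingosine-1-phosphate receptor, changed by -2.42 ± 0.06 log2 (SE), to 7.22 in γ+ against 9.63 in control. Flt4, the receptor for VEGF-C and VEGF-D in lymphatics, changed by -1.69 and the co-receptor Nrp1 by -1.21. Notch1 (0.32) and the Notch target Hey2 (0.29), named after their values were seen, rose, and 1 of the 19 was higher without γ+ replicate 2.

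Among the same 19 genes, Vegfd and Bmpr2 rose and Flt4 fell in γ-, where 3.06% of all genes were called higher and 3.88% lower. Vegfd, a ligand of Flt4, went opposite ways in the γ- and γ+ groups. Its mean was 4.86 in γ+, 7.24 in γ-, 6.58 in 23/24 and 6.62 in control. The γ+ mean was just above the filter level of 4.78, near the range of dim probe sets. The γ- change was 0.61 ± 0.09 log2 (SE, limma adjusted p = 0.0011) and the γ+ change -1.76 ± 0.09 (adjusted p = 3.3e-11). Bmpr2, a BMP receptor, was higher by 0.18 and Flt4 lower by 0.27 in γ- than in control. Under median centring 1 of the 19 was higher and 0 lower. Against 23/24, γ- was higher in Vegfd (0.66), Bmpr2 (0.17) and Vegfc (0.22), where 4.16% of all genes were called higher and 3.94% lower.

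Genes of flow response and haemostasis had 10 of 11 lower and 0 higher in γ+. Of all genes, 38.7% were called lower and 26.2% higher there. Edn1, the vasoconstrictor endothelin-1, changed by -2.59 ± 0.09 log2 (SE), to 5.75 in γ+ against 8.34 in control. Ptgis, the prostacyclin synthase, changed by -2.07 and Procr, the protein C receptor, by -1.11. In γ-, where 3.88% of all genes were called lower and 3.06% higher, 3 of 11 fell. They were Edn1 (-0.51), Ece1, which cleaves endothelin to its active form (-0.33), and Ptgis (-0.38). Vcam1, a leukocyte adhesion molecule named after its value was seen, rose by 0.35 in γ-, with means of 7.08 in γ- and 6.72 in control. Against 23/24, Ece1 (-0.31), Ptgis (-0.30) and Nos3, the endothelial nitric oxide synthase (-0.30), were lower and Vcam1 (0.33) was higher in γ-. Over all genes, 3.94% were called lower and 4.16% higher in that comparison. Under median centring 0 of the 11 were lower there.

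Against γ-, the γ+ group had 45 of the 62 genes lower and 2 higher, where 37.5% of all genes were called lower and 26.7% higher. Against 23/24 it had 47 lower and 4 higher, where 37.9% of all genes were called lower and 28% higher. S1pr1 (-2.32 against γ- and -2.33 against 23/24), Edn1 (-2.08 and -2.27), Cav1 (-1.22 and -1.24), Plvap, which forms the diaphragms of capillary pores (-1.50 and -1.51), and Klf2 (-1.17 and -1.34) were among the lower ones. The γ+ mean of Plvap, 4.75, was under the filter level of 4.78, in the range of dim probe sets.

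Markers of other cell types moved with the endothelial genes in γ+, where 38.7% of all genes were called lower and 64.9% in either direction. All 18 cardiomyocyte markers were lower there, with a median of -1.21 log2, and the summed intensity of the list (log2 values turned back to linear) ran from 42041 to 45169 in γ+ arrays, against 92841 to 95562 in control arrays. All 12 fibroblast markers were lower (median -1.34, sums of 6480 to 6876 in γ+ against 15358 to 15682 in control). Of 12 smooth muscle and pericyte markers 11 were lower (median -0.90, sums of 13925 to 14479 against 25210 to 26510). Of 8 macrophage and leukocyte markers tested 6 were lower (median -0.32, sums of 631 to 680 against 908 to 928). Under median centring 10 of the 12 and 4 of the 8 were lower, and all 18 cardiomyocyte and all 12 fibroblast markers stayed lower. The 9 endothelial genes summed to 1217 to 1258 in γ+ and 2344 to 2500 in control. Most of each sum came from Aqp1 and Eng, which other cells also carry, with control means of 9.92 and 9.73 log2. The other genes had control means from 5.44 (Sox18) to 7.12 (Tie1). The part of a change in cell makeup, or of a change common to all these cells, was not tested.

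In γ- fewer genes of the other lists passed, where 3.88% of all genes were called lower and 3.06% higher. Among cardiomyocyte markers 0 of 18 were lower and 1 higher, with sums of 93594 to 94320 in γ- and 92841 to 95562 in control. Fibroblast markers had 1 of 12 lower (sums of 14482 to 14671 in γ- against 15358 to 15682 in control) and smooth muscle and pericyte markers 1 of 12 (25123 to 25465 against 25210 to 26510). Macrophage and leukocyte markers had 3 of 8 lower (795 to 832 against 908 to 928). The endothelial genes summed to 2177 to 2331 in γ- arrays and 2344 to 2500 in control arrays, and the part of these other cells in the endothelial values was not tested. Aqp1 and Eng made up most of these sums as well. Without γ+ replicate 2 in the fit the γ- counts were 3 higher and 2 lower for cardiomyocyte markers, 1 higher and 4 lower for fibroblast markers and 3 lower for smooth muscle and pericyte markers. The share of all genes called was then 16.6%. Under median centring 0 genes of those 3 lists passed in γ-, and 2 of the 8 macrophage and leukocyte markers were lower. In 23/24 relative to control 0 genes of these 4 lists passed in limma.

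**Figure D4:**
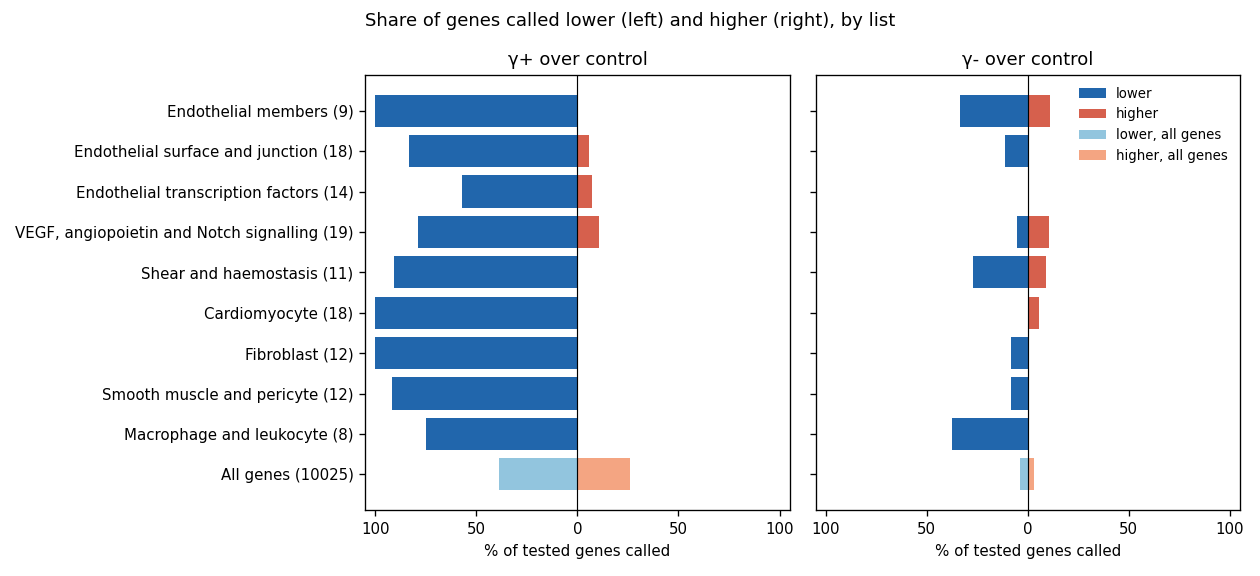
Share of the tested genes of each list (number in brackets, in % of the list) called lower (bars to the left) and higher (bars to the right) by limma at an adjusted p under 0.05, in γ+ (left) and γ- (right) relative to control, with all genes in the bottom row. In γ+ the rows of the endothelial members, cardiomyocytes and fibroblasts reach 100% lower beside 38.7% of all genes, and the other endothelial rows do not. In γ- the endothelial members, the VEGF, angiopoietin and Notch list and the shear and haemostasis list hold both directions, as do all genes.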

How the data were processed

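Gene expression was measured on 12 arrays, 1 per sample. The deposited values were taken as log2 intensity, from 1.09 to 13.89, above the natural log of a full-scale scanner reading. Per the submitters' processing notes MAS5 was used; the sources used here give neither its version and settings nor how arrays were normalized. Of 28826 probe sets, 15209 had 1 gene symbol, 306 several and 13311 none. Symbols were updated through Entrez identifiers in the RefSeq table of GRCr8 (15178 matched).

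A probe set was dropped when its 12-array mean did not exceed 4.78, the 40th percentile, and the highest-mean probe set stood for each gene. limma 3.58.1 in R 4.3.3 fitted a mean per group over all 12 arrays (eBayes with an intensity trend, 8 residual degrees of freedom), with Benjamini-Hochberg adjustment over 10025 genes in each comparison and a threshold of 0.05. The procedure was tested on simulated data. The number of arrays limits the precision. Samples were treated as unpaired, as the labels do not say that same-numbered samples belong together.

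The members, gene lists, comparisons and alternatives were chosen with earlier results of these data known. All 9 measured members were named, and from each endothelial list the genes with the smallest adjusted p, at most 3, in comparisons that called at least 2 of it. The lists were the 4 endothelial ones, and markers of cardiomyocytes, fibroblasts, smooth muscle and pericytes, macrophages and leukocytes, lymphatic endothelium, endocardium, epicardium and erythroid cells.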

Additional observations from a re-analysis of the deposited data

How the results depend on the processing

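Each count of called genes was recomputed after median centring, quantile normalization, without a filter, with the filter at the 60th percentile (which left 6 of the 9 genes tested), with the mean over probe sets, without the intensity trend, in the 6 compared arrays alone, with replicate number as a block, with a minimum change of 0.5 log2, and without each array. In γ+ against control and against 23/24 all tested genes stayed lower in each run on adjusted p alone, and with the minimum change 8 and 6 of the 9 did. In γ- against control the count of 4 became 2 under median centring and 1 with the minimum change. It also became 2 at the 60th percentile, where Sox18 and Tek were not tested. In γ- against 23/24 the count of 1 became 0 with the minimum change. Without single arrays the counts were 9 in γ+ against control and against 23/24, 8 to 9 in γ+ against γ-, 0 to 5 in γ- against control, 0 to 1 in γ- against 23/24, and 0 in 23/24 against control. Leaving out γ+ replicate 2 from the fits of the other groups, or all γ+ arrays, was added after seeing the data. Among single-gene values, 758 kept their call, 31 lost it, 3 gained it (Aqp1 in γ-) and 0 changed direction with a call; apart from the construction of the smaller sets, the cause was not tested. Same-numbered arrays had correlations of their deviations of -0.22 to 0.12, with 1 of 18 above 0.1, so the values show no clear pairing by number. Whether same-numbered cultures shared a cell isolation is not stated, and these correlations cannot tell. With the replicate block the counts were 9, 4 and 0 in γ+, γ- and 23/24 against control, 9 in γ+ against γ- and against 23/24, and 1 in γ- against 23/24, as without it. Median centring moved the share of higher genes among all calls to 51.2% in γ+ against control, where it was 40.4% before. It moved that share to 77.9% in γ- against 23/24, where it was 51.4% before, and to 58.5% in γ+ against 23/24, where it was 42.5%.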

Other observations

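Genes of neighbouring vessel and heart linings were also read. All 5 lymphatic endothelial genes tested were lower in γ+ than in control (median -0.76 log2), where 38.7% of all genes were called lower. Prox1, the factor that sets lymphatic identity, stood at 6.32 in γ+ and 7.08 in control. Lyve1, the hyaluronan receptor, stood at 4.88 in γ+, just above the filter level of 4.78, and at 5.64 in control. Prox1 is also known from heart muscle and Flt4 counts on 2 of the lists. In γ- Flt4 was the 1 of the 5 that fell, where 3.88% of all genes were called lower. In 23/24 0 of 5 passed in limma. Both endocardial genes tested, Npr3 (-2.10) and Hapln1 (-1.17), fell in γ+, to 5.65 and 4.11 against 7.75 and 5.28 in control, and 0 of 2 passed in γ- or 23/24. The γ+ mean of Hapln1 was under the filter level of 4.78, in the range of dim probe sets.

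Of the epicardial genes, all 3 tested were lower in γ+, where 38.7% of all genes were called lower. Msln, the mesothelial surface protein, changed by -2.32 ± 0.07 log2 (SE, n = 3 per group, limma adjusted p = 2.2e-13), while Wt1 changed by -0.36 and Tbx18 by -0.20, and 2 of the 3 were lower without γ+ replicate 2. The 1 erythroid gene tested, Hbb, had means of 5.65 in γ+, 5.81 in γ-, 5.70 in 23/24 and 5.43 in control and did not pass against control in any group, although it was higher in γ- without γ+ replicate 2, and higher in γ+ under median centring and under quantile normalization. These genes were named after their values were seen.

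Replicate 2 of γ+ was the highest of its group for 4 endothelial genes (Pecam1, Cdh5, Flt1 and Eng), the lowest for 4 (Kdr, Tek, Tie1 and Aqp1) and between the others for Sox18.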
